A study of Mus musculus with 36 samples.

Results

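Testes of D1Pas1 knockout mice were compared with wild-type testes at postnatal day 18 (P18). The comparison rests on 6 RNA-seq libraries, 3 per genotype, of the 36 samples in the series, and they were chosen by their genotype and age labels alone. All 24626 genes of the P18 table entered, and 15722 of them had enough counts to be tested. The series also holds the same comparison at P14 and P28, small RNA, eCLIP and an R-loop assay. Wild-type libraries are numbered 7 to 9 and knockout libraries 10 to 12, as in the column names of the table.

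The labels give the genotype as WT or KO, the tissue as testis and the cell type as male germ cell, and total RNA as the starting material. Neither the knockout allele, the strain nor the number of animals behind a library is stated in the sources used here. The labels do not say that libraries came from separate animals, so the p-values speak only of the spread among these 6 libraries, which may be technical. Markers of Sertoli, Leydig, peritubular and immune cells were detected in both genotypes, so the libraries carry RNA of testicular somatic cells besides germ cells.

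D1PAS1 is an RNA helicase of the DEAD-box family found in male germ cells, encoded by an intronless autosomal gene that descends from the X-linked Ddx3x. In the first wave of mouse spermatogenesis, spermatocytes of young testes advance together through meiotic prophase, and around P18 the most advanced germ cells are pachytene spermatocytes. Pachytene cells silence the X and Y chromosomes and switch on a large set of genes for later use, including those for the sperm tail, the acrosome and autosomal retrocopies of silenced X-linked genes. Haploid spermatids follow later, and their protamines and transition proteins mark that stage.

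The P18 libraries held 16048760 to 21745480 estimated counts each. The 6 pairs of libraries of 1 genotype correlated at 0.979 to 0.993 across genes (Pearson's r of log2 levels), and the 9 pairs of different genotype at 0.941 to 0.959, where genes are no independent replicates. D1Pas1 (chromosome 1, 186967416 to 186970627, GRCm38.p6) was at 57.5, 79.8 and 127.0 CPM (counts per 1000000 counts of the library, after TMM scaling) in wild-type libraries 7, 8 and 9, and at 15.2, 23.2 and 21.4 CPM in knockout libraries 10, 11 and 12. The groups did not overlap, and 22.6% of the wild-type mean was left. Of 20 spermatid markers 3 had enough counts to be tested and none was called, and the summed level of all 20 was 6.37 to 11.1 CPM in wild type and 6.14 to 9.47 CPM in knockout. The transition protein gene Tnp1 had at most 0.129 CPM in any library and the protamine gene Prm1 was at 0 in all 6. Wild-type library 8 stood apart in epididymal markers, whose sum was 46.1 CPM there against 5.24 and 2.74 CPM in the other wild-type libraries and 0.756 to 0.870 CPM in knockout, with the epididymal secretory gene Crisp1 at 39.7 CPM.

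Knockout testes differed from wild type mainly by loss of transcripts. By edgeR's quasi-likelihood test at an adjusted p below 0.05, 2365 genes were lower in knockout, which is 15.0% of the genes tested, and 502 were higher, which is 3.19%, so that 18.2% of the genes were called. Calls were lower in 82.5% of cases. That share depended on the scaling: it was 54.3% with library totals in place of the TMM scaling factors and 56.9% with upper-quartile factors, settings under which the log2 fold changes of the tested genes had a median of 0.12 and 0.11 in place of 0.00. The falls ranged from shallow to deep. The knockout mean was at most 5% of the wild-type mean for 112 of the lower genes, between 5 and 10% for 137 and between 10 and 25% for 378. It was between 25 and 50% for 684, between 50 and 75% for 958 and between 75 and 100% for 96. The rises were small: 328 of the 502 higher genes rose by less than 1.5-fold, 107 by 1.5 to 2-fold, 47 by 2 to 4-fold and 20 by more than 4-fold. The count of higher genes also rested on single libraries and was 123 without wild-type library 8, 307 without knockout library 11 and 99 without knockout library 12, where 1 sample less also lowers the power.

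**Figure D1:**
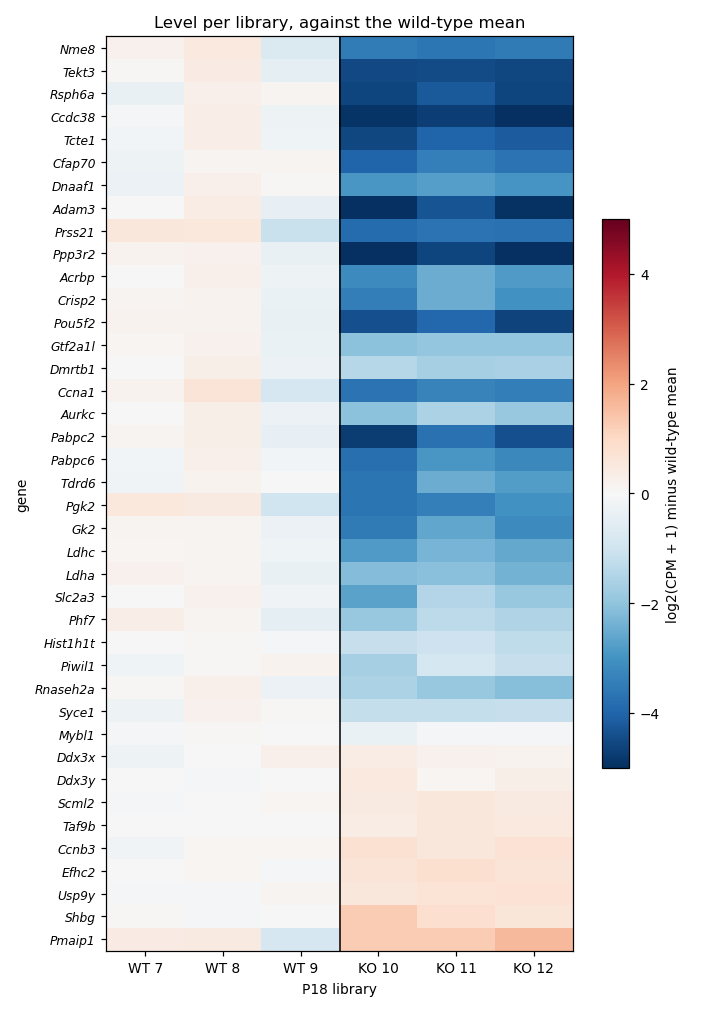
Level of 40 named genes in each P18 library, as log2(CPM + 1) minus the mean of the 3 wild-type libraries (colour, log2 scale), with genes in rows and libraries in columns. The genes from Nme8 to Syce1 are blue in all 3 knockout libraries, Mybl1 is close to the wild-type mean in all 6, and the genes from Scml2 to Pmaip1 are pale red in the knockout libraries.

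Genes of the sperm tail axoneme were lower in knockout with few exceptions. The axoneme is the bundle of microtubule doublets with dynein motors that moves the flagellum. Across 7 lists of its parts, 98 of 112 listed genes were in the table and 94 were tested. Of these, 84 (89.4%) were lower and 1 was higher, with a median log2 fold change of -2.06, beside 15.0% lower and a median of 0.00 over all genes tested. All 10 tested genes of the inner dynein arms and all 12 of the radial spokes were lower, as were 12 of 13 assembly factors, 14 of 15 central pair genes, 10 of 11 genes of the nexin-dynein regulatory complex, 18 of 20 tektins and other proteins within the microtubules, and 8 of 13 outer dynein arm genes. The lists' medians ran from -1.72 for the assembly factors to -2.46 for the inner arms.

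Nme8, an outer arm component (chromosome 13, 19645078 to 19697826), was at 13.0, 16.1 and 6.37 CPM in wild-type libraries 7, 8 and 9 and at 0.0574, 0 and 0.0504 CPM in knockout libraries 10, 11 and 12. The knockout libraries held 2 counts in all, and the ratio of the group sums was 329.1-fold, with a 95% interval of 90.7 to 2723 that covers counting error only. An intermediate chain and a heavy chain gene of the outer arms fell as well. Dnaic2, the intermediate chain gene, had 15.0, 23.0 and 6.99 CPM in wild type against 0.517, 0.307 and 0.202 CPM in knockout (log2 fold change -5.45 ± 0.55 SE, adjusted p 1.93e-04). Dnah8, a heavy chain of the sperm outer arm, had 977.3, 2196 and 1661 CPM against 350.1, 286.8 and 515.7 CPM (-2.07 ± 0.31, adjusted p 0.00200). Even the highest knockout library was below the lowest wild-type library in each of these genes. The heavy chain genes Dnah9 (0.29 ± 0.22) and Dnah11 (0.64 ± 0.34), known from motile cilia, did not pass the test, with at most 2.81 CPM in any library.

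Tekt3, a tektin that lines the doublet (chromosome 11, 63061659 to 63094960), was at 24.7, 31.3 and 16.4 CPM in wild type and at 0.0574, 0.102 and 0.0504 CPM in knockout, so that 0.290% of its mean was left (log2 fold change -8.29 ± 0.41, adjusted p 1.58e-05). Rsph6a, a radial spoke head gene of sperm, had 23.8, 37.2 and 34.2 CPM against 0.344, 0.767 and 0.353 CPM (-5.99 ± 0.32, adjusted p 1.58e-05). Tcte1, of the nexin-dynein regulatory complex, had 41, 57.8 and 39.4 CPM against 0.976, 1.89 and 1.61 CPM. The inner arm heavy chain Dnah6 had 53.3, 68.0 and 67.4 CPM against 1.84, 3.58 and 2.52 CPM. In these 4 genes every knockout library lay far below every wild-type library. Dnaaf1, which helps assemble dynein arms in the cytoplasm, had 143.6, 208.1 and 180.9 CPM against 22.2, 25.4 and 21.7 CPM (-2.94 ± 0.16). Of 26 genes of intraflagellar transport, the conveyor that builds cilia, 13 were lower and none higher, with a median of -0.51. Its lowest member was Ift140, with 341.0, 457.5 and 412.5 CPM against 118.4, 145.9 and 137.8 CPM (-1.59 ± 0.14).

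The 1 axoneme gene that was higher lies on the X chromosome. Efhc2, which encodes a microtubule inner protein, was at 4.79, 5.07 and 4.25 CPM in wild type and 7.92, 8.85 and 7.87 CPM in knockout (log2 fold change 0.80 ± 0.17, adjusted p 0.0106). Every knockout library was above every wild-type library in it.

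**Figure D2:**
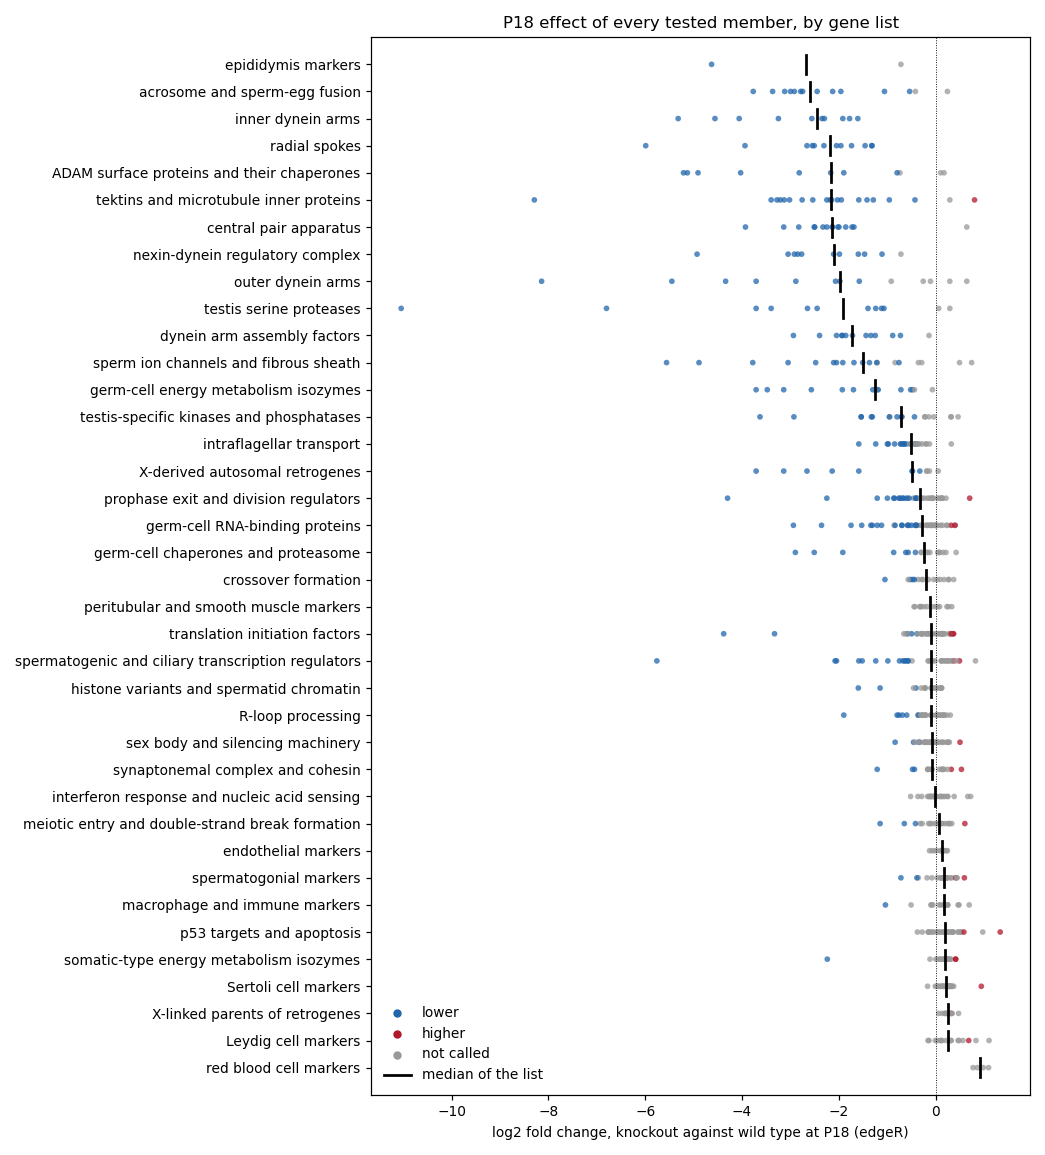
Log2 fold change at P18 (knockout against wild type) of every tested member of 38 gene lists, 1 list per row, with genes as points coloured by call and the median of each list as a black bar. The axoneme, acrosome, ADAM and protease lists lie to the left with medians at or below -1.72, and the Sertoli and Leydig lists have medians of 0.22 and 0.26.

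Most tested genes for the acrosome and the sperm surface were lower, and many listed genes had too few counts to be tested. For the acrosome and sperm-egg fusion, 14 of 30 genes passed the filter on low counts. Of these, 12 (85.7%) were lower (median -2.60), beside 15.0% of all genes tested. For the ADAM family and its chaperones 8 of 11 tested genes of 24 (72.7% of those tested) were lower (-2.17). For testis serine proteases 10 of 12 of 18 (83.3% of those tested) were lower (-1.93). The members with the highest values, none of them called, were Spaca1 (0.24), Calr3 (0.17) and Prss50 (0.29). A gene passes that filter when either genotype holds enough counts. A member with counts in wild type only passes through wild type alone, so its direction was fixed by the filter. The shares lower in these lists therefore describe the tested members and are no test of the lists. Prss39, a serine protease gene, was at 12.4, 22.8 and 6.80 CPM in wild type and at 0 in all 3 knockout libraries, which is at least 265.0-fold lower with a floor of 3 counts over the group. Adam3, whose protein is needed for sperm to pass the oviduct, was at 107.6, 138.1 and 78.5 CPM against 1.89, 4.35 and 2.42 CPM (-5.21 ± 0.32, adjusted p 2.38e-05). Acrbp, which binds proacrosin, was at 99.1, 117.4 and 82.0 CPM against 9.87, 16.8 and 12.8 CPM (-2.92 ± 0.21). No knockout library reached a wild-type library in these genes. Clgn, a chaperone that folds ADAM proteins, was at 236.6, 320.4 and 296.1 CPM against 135.6, 181.7 and 173.6 CPM (-0.80 ± 0.15, adjusted p 0.00727).

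Of 30 sperm ion channel and fibrous sheath genes 19 passed the filter on low counts. Of these, 13 (68.4%, beside 15.0% of all genes tested) were lower, with a median of -1.51. The limit set by the filter for the acrosome list holds here too, so this share describes the tested members and is no test of the list. Ppp3r2, the testis form of the calcineurin regulatory subunit, was at 122.1, 126.0 and 84.2 CPM in wild type and 1.72, 3.58 and 1.66 CPM in knockout (-5.56 ± 0.30, adjusted p 1.73e-05). Catsperd, a subunit of the sperm calcium channel, was at 38.3, 40.8 and 32.3 CPM against 2.24, 3.68 and 2.17 CPM (-3.78 ± 0.22). The genotypes did not overlap in either gene.

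Spermatocytes replace several glycolytic and mitochondrial enzymes by germ-cell forms, often from retrocopies. Of 17 germ-cell forms 14 passed the filter on low counts, and 11 of these were lower (median -1.25). Of the 17, 2 were at 0 in all knockout libraries. The limit set by the filter for the acrosome list holds here too, so the count of 11 describes the tested members only. Of 19 forms shared with somatic cells 1 was lower and 2 higher (median 0.19). Over all genes tested 15.0% were lower and 3.19% higher. Ldhc, the germ-cell lactate dehydrogenase, was at 1029, 1045 and 822.8 CPM in wild type and 133.2, 192.4 and 161.1 CPM in knockout (-2.57 ± 0.17, adjusted p 2.73e-05). The glucose transporter gene Slc2a3 was at 1235, 1450 and 1120 CPM against 196.9, 456.5 and 342.2 CPM (-1.93 ± 0.28, adjusted p 0.00137). Pgam2, the muscle and germ-cell phosphoglycerate mutase, was at 47.0, 60.4 and 42.6 CPM against 4.94, 3.94 and 4.59 CPM (-3.48 ± 0.18). The 1 somatic form that fell was Ldha, with 561.9, 531.1 and 365.5 CPM against 104.5, 112.3 and 91.4 CPM (-2.24 ± 0.18, adjusted p 6.03e-05). The 2 that rose, Got1 and Slc2a1 (both 0.41), lost their calls in most fits with 1 library fewer, including those without wild-type library 8 (adjusted p 0.0956 for Got1 and 0.0833 for Slc2a1).

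D1Pas1 belongs to a group of autosomal retrogenes that stand in for X-linked parents during silencing. Of 12 tested retrogenes of this kind, 8 (66.7%) were lower, beside 15.0% of all genes tested. D1Pas1, the knocked-out gene, is 1 of these 8, and its fall says nothing about the group. Of 12 X-linked parents none was lower and 1 (8.33%) was higher, beside 3.19% of all genes. The count of lower retrogenes was 5 in a fit of all 18 RNA-seq libraries together. In several strongly lower genes wild-type library 9 was the lowest of its group. Pgk2 was at 95.7, 90.6 and 32.3 CPM in wild type and 4.25, 5.22 and 7.11 CPM in knockout (-3.71 ± 0.42, adjusted p 3.67e-04), while its parent Pgk1 was at 60.8, 53.4 and 47.5 CPM against 68.0, 61.9 and 63.7 CPM (0.26 ± 0.11, adjusted p 0.154). Gk2 was at 139.8, 138.0 and 103.7 CPM against 10, 20.0 and 13.1 CPM (-3.14 ± 0.25, adjusted p 5.95e-05), and its parent Gyk had 0.32 ± 0.22 with overlapping groups. Timm8a2 was at 4.98, 8.17 and 7.93 CPM against 1.61, 2.66 and 2.72 CPM (-1.59 ± 0.28, adjusted p 0.00489). Cetn1 was the remaining retrogene with a fall of more than 2-fold (-2.66 ± 0.20). Pdha2 fell by 0.48 on the log2 scale (adjusted p 0.00675), a call that was lost in a fit of all 18 RNA-seq libraries together (0.201). Of 12 alternatives, the call of Rpl10l (-0.49) was lost in 9, that of Cstf2t (-0.33) in 10, and the rise of the parent Cstf2 (0.31) in 6, which were the fits with 1 library left out, with adjusted p up to 0.219, 0.208 and 0.158. Reads of a retrogene and its parent may be divided between the copies by the authors' counting, and no source used here says how.

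**Figure D3:**
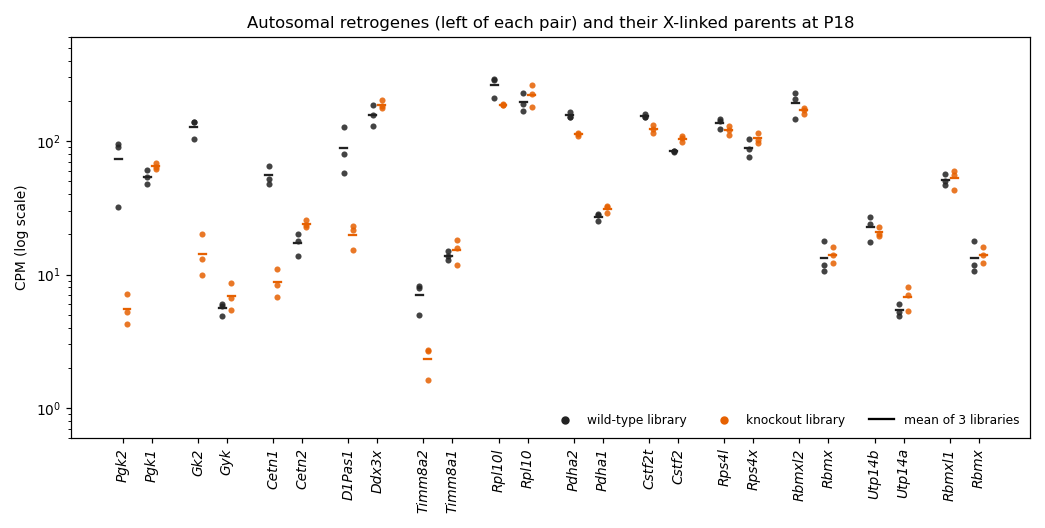
CPM (log axis) of each retrogene and, to its right, its X-linked parent in the 3 wild-type (black) and 3 knockout (orange) libraries, with bars at group means, for the 12 tested pairs ordered by the retrogene's fold change. Pgk2 and Gk2 have knockout libraries at 20.0 CPM or less beside wild-type libraries at 32.3 CPM or more, while their parents Pgk1 and Gyk differ little.

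Falls were most frequent among genes that rise in the normal testis after P14. Genes were classed by their change from P14 to P28 in wild-type libraries, none of which enters the P18 comparison. Of 3143 tested genes at least 2-fold higher at P28, 1780 (56.6%) were lower in P18 knockout and 29 higher, with a median log2 fold change of -0.77. Of 7147 genes within 2-fold, 558 (7.81%) were lower and 145 higher. Of 5432 genes at least 2-fold lower at P28, 27 (0.497%) were lower and 328 (6.04%) higher, with a median of 0.17. In 7 classes, a split added after the values were seen, the median of autosomal genes went from 0.18 for genes more than 4-fold lower at P28 to -0.45 for genes 2 to 4-fold higher, -1.56 for 8 to 32-fold and -2.83 for the 405 genes more than 32-fold higher, of which 327 were lower. A gene with counts in wild type only passes the low-count filter through wild type alone, so its direction was fixed by the filter. How many genes of the rising classes entered in that way is not given here, and their shares describe the tested genes only. In a bulk sample, fewer cells of a type and less RNA per cell cannot be told apart. P14 and P28 libraries come from tables of their own, so age cannot be told apart from any difference between tables in these classes.

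**Figure D4:**
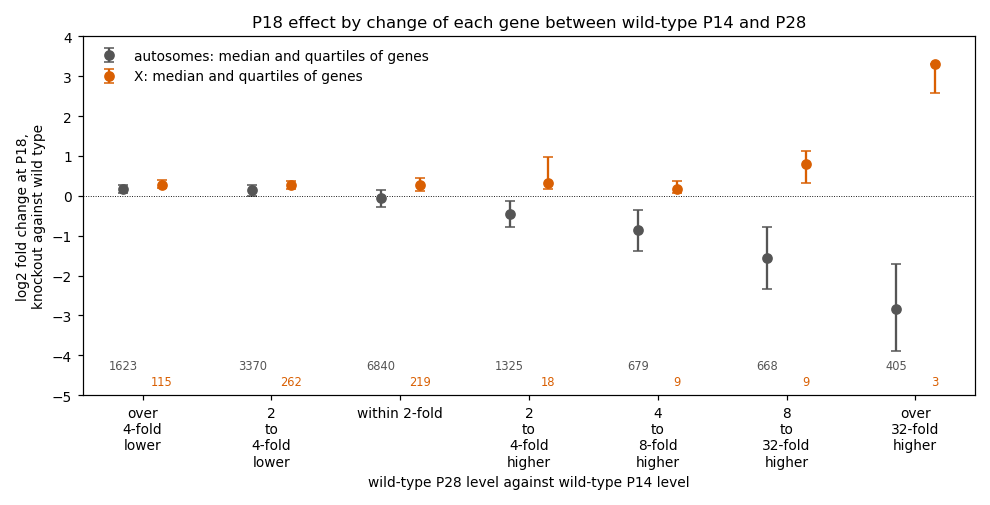
Median and quartiles of the log2 fold change at P18 (vertical axis) for genes classed by their wild-type P28 level against P14 (horizontal axis), for autosomes (grey) and the X chromosome (orange), with gene numbers at the foot. The autosomal median falls to -2.83 in the class more than 32-fold higher, where the X chromosome has 3 genes with a median of 3.31.

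The X and Y chromosomes held more rises than falls. Of 635 tested X-linked genes 95 (15.0%) were higher and 1 was lower, with a median of 0.27, and of 17 Y-linked genes 7 were higher and none lower, with a median of 0.75. Among 14910 autosomal genes 397 (2.66%) were higher and 2345 (15.7%) lower (median -0.02), and single autosomes ranged from 1.30 to 3.95% higher and from 12.9 to 20.1% lower. The X chromosome gave 2.13, 2.05 and 2.08% of all counts in wild-type libraries 7, 8 and 9 and 2.84, 2.76 and 2.72% in knockout libraries 10, 11 and 12. The median of X-linked genes exceeded that of autosomal genes by 0.29 on the log2 scale. The count of higher X-linked genes was 143 with DESeq2, 215 with library totals and 204 with upper-quartile factors, and 36 without wild-type library 8, 57 without knockout library 11 and 35 without knockout library 12. By the classes above, 54 of 377 X-linked genes that fall between P14 and P28 were higher in P18 knockout, 31 of 219 within 2-fold and 10 of 39 that rise.

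**Figure D5:**
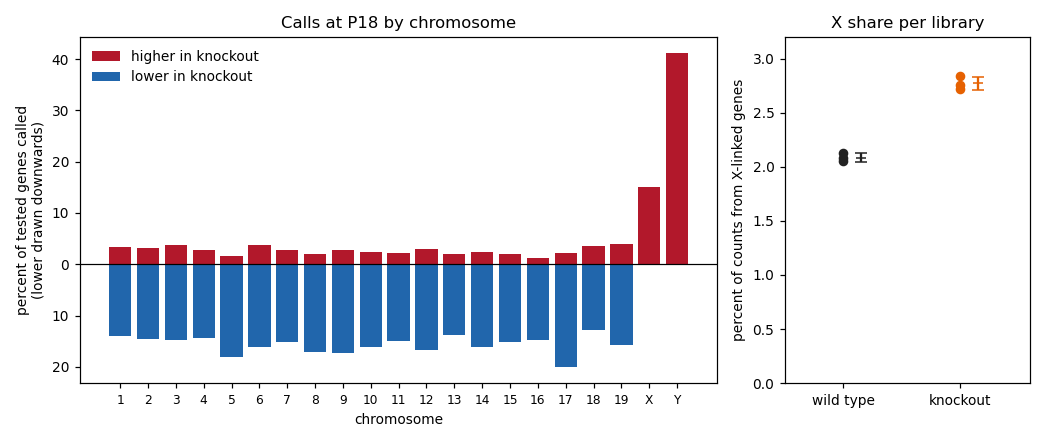
Percent of tested genes called higher (red, upwards) or lower (blue, downwards) at P18 on each chromosome (left), and the percent of counts from X-linked genes in each library with mean and SD to the right of the points (right, n = 3 per genotype). The X chromosome has 15.0% of its genes higher and 0.157% lower, and the 3 knockout libraries lie between 2.72 and 2.84% of counts.

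Scml2, an X-linked Polycomb gene of germ cells, was at 133.9, 139.1 and 151.0 CPM in wild type and 194.4, 209.3 and 195.0 CPM in knockout (0.50 ± 0.10, adjusted p 0.00727). Taf9b, an X-linked relative of a general transcription factor subunit, was at 58.3, 60.8 and 58.5 CPM against 77.2, 87.7 and 84.3 CPM (0.49 ± 0.09, adjusted p 0.00709). Ccnb3, the X-linked cyclin B3, was at 20.5, 24.9 and 24.9 CPM against 40.3, 35 and 38.9 CPM (0.70 ± 0.12, adjusted p 0.00457). The Y-linked deubiquitinase gene Usp9y was at 55.2, 56.7 and 64.8 CPM against 86.7, 96.1 and 98.1 CPM (0.67 ± 0.11, adjusted p 0.00249). Every knockout library was above every wild-type library in these 4 genes. A few X-linked genes of low level rose by more. Tsga8, named after its values were seen, was at 7.12, 11.4 and 3.12 CPM against 20.2, 27.0 and 29.5 CPM (1.83 ± 0.39, adjusted p 0.0118), a call that was lost without knockout library 12 (adjusted p 0.0509). Gm14625, named in the same way, was at 0, 0.355 and 0.0472 CPM against 3.62, 1.28 and 1.71 CPM (3.90 ± 0.77, adjusted p 0.00844). Of 34 genes of the sex body and the silencing machinery 1 (Scml2, 2.94%) was higher and 3 (8.82%) were lower, with a median of -0.08. Over all genes tested 3.19% were higher and 15.0% lower. In this list 1 was lower with library totals, upper-quartile factors or all 18 libraries.

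Genes of early meiotic prophase were lower about as often as all genes. Of 21 genes of meiotic entry and double-strand break formation 1 was higher and 3 (14.3%) lower (median 0.07), and of 17 of the synaptonemal complex and cohesin 2 were higher and 3 (17.6%) lower (-0.08), beside 15.0% lower over all genes tested. The lower counts were 1 and 1 without wild-type library 8, and likewise without knockout library 12. Sycp3, of the chromosome axis, was at 223.9, 290.0 and 247.8 CPM in wild type and 267.6, 178.5 and 236.7 CPM in knockout, with overlapping groups (-0.16 ± 0.16, adjusted p 0.560). Dmc1, the meiotic recombinase, was at 64.5, 63.3 and 59.1 CPM against 84.2, 69.3 and 75.8 CPM and did not pass the test (0.29 ± 0.10, adjusted p 0.0890). Single members fell. Syce1, of the central element, was at 64.7, 89.6 and 82.2 CPM against 34.0, 33.3 and 35 CPM (-1.21 ± 0.13, adjusted p 2.99e-04), and Psmc3ip, a partner of the recombinases, at 9.45, 12.6 and 15.2 CPM against 5.17, 4.91 and 6.76 CPM (-1.15 ± 0.22, adjusted p 0.00706). Among crossover genes 4 of 16 (25%) were lower, a count that was 2 in 5 of the 6 fits with 1 library left out and with library totals, upper-quartile factors or all 18 libraries. The called members included Prr19 at -1.05 ± 0.14 and Mlh3 at -0.53 ± 0.10.

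Of 35 regulators of prophase exit and division 15 (42.9%) were lower, beside 15.0% of all genes tested. Ccnb3 was the 1 higher member (2.86%, beside 3.19% of all genes), and the median was -0.33. The lower count was 9 with all 18 libraries in 1 fit. Ccna1, the germ-cell cyclin A1 needed to leave prophase, was at 30.4, 41.8 and 14.5 CPM in wild type and 1.15, 1.69 and 1.51 CPM in knockout (-4.30 ± 0.41, adjusted p 1.48e-04). Aurkc, a meiotic Aurora kinase, was at 10.7, 13.6 and 8.69 CPM against 1.84, 2.92 and 2.17 CPM (-2.25 ± 0.25, adjusted p 3.41e-04). Hspa2, a spermatocyte chaperone, was at 880.3, 1167 and 893.2 CPM against 485.7, 556.8 and 563.0 CPM (-0.87 ± 0.14, adjusted p 0.00283). These 3 had separate groups. The general division genes Ccnb1 (-0.06 ± 0.14, adjusted p 0.802) and Plk1 (-0.46 ± 0.14, adjusted p 0.0576) did not pass.

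Transcription regulators of spermatogenesis and cilia were lower in 13 of 33 (39.4%) and higher in 2 (6.06%), with a median of -0.10. Over all genes tested 15.0% were lower and 3.19% higher. With all 18 libraries in 1 fit 8 of the regulators were lower and 5 higher. Pou5f2, a germ-cell POU factor (chromosome 13, 78024902 to 78026296), was at 32.6, 32.5 and 22.0 CPM in wild type and 0.402, 0.972 and 0.202 CPM in knockout (-5.76 ± 0.40, adjusted p 3.26e-05). Gtf2a1l, the germ-cell form of a TFIIA subunit, was at 81.2, 88.0 and 60.1 CPM against 17.5, 18.9 and 19.0 CPM (-2.05 ± 0.15). Dmrtb1, which acts at the entry into meiosis, was at 205.2, 248.7 and 164.6 CPM against 75.7, 64.4 and 65.3 CPM (-1.59 ± 0.16). Groups were well apart in these 3 genes. Mybl1, the master regulator of pachytene transcription, was at 200.6, 225.4 and 221.0 CPM against 173.1, 201.6 and 206.3 CPM, with overlapping groups (-0.16 ± 0.11, adjusted p 0.369). The ciliary factor Rfx2 was called at -0.57 ± 0.17 (adjusted p 0.0482), a call that was lost in 9 of 12 alternatives, of scaling and filter as well as of single libraries (adjusted p up to 0.176). Rfx1 (0.31 ± 0.17) and Rfx3 (0.24 ± 0.12) did not pass.

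Promoter sequences were read for motifs of 3 families of such regulators. RefSeq promoters (GRCm38.p6, 300 bases, from 250 before the start) were matched for 12244 of the tested genes, with 15475 promoters. The letters searched on both strands were CAACNGNC for MYB factors, GTTNCCATG for RFX factors and TGACGTCA for the cyclic AMP response element. The MYB letters stood in 11% of the tested genes' promoters and 10.3% of all 32851 promoters in the table, in 18.4% of those of lower genes, 21% of genes lower by at least 2-fold, 25.6% of genes lower by at least 4-fold and 10.1% of higher genes. The RFX letters stood in 1.48% of tested promoters (1.93% of all), 2.63% for lower genes, 1.17% for higher genes and 10.1% (8 of 79 promoters) for lower axoneme genes. All tested axoneme genes, lower or not, had them in 9.09% (8 of 88 promoters). The response element stood in 2.81% (1.79% of all), 2.80% for lower genes, 1.43% for genes lower by at least 4-fold and 3.11% for higher genes. These sets differed in base composition. Median GC content was 60.3% for tested promoters, 61.2% for higher genes and 58.3% for lower genes. It was 56.7% for genes lower by at least 2-fold and 53.7% for those lower by at least 4-fold. Among genes that rise at least 8-fold from P14 to P28 in wild type, a set chosen after the values were seen, the MYB letters stood in 24.2% of promoters of genes lower at P18 and in 12.4% of those not called, with median GC contents of 55.7 and 55.3%. In the same sets the RFX letters stood in 4.62 and 3.53% and the response element in 2.00 and 3.89%. These are matches of letters, not binding sites. The windows that follow were chosen after their matches were seen. They show the motif of lower genes of several kinds, in capitals, 5′ to 3′ along the gene. Each holds 60 bases before the motif and up to 45 bases after it, and stops at most 10 bases past the start of transcription. The windows of Ccna1 and Piwil1 end before that start.
Dnali1 (inner arm light chain; RFX letters; chr4:125065648-125065725, minus strand): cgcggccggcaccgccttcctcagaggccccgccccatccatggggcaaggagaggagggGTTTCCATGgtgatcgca
Cfap52 (microtubule inner protein; RFX letters; chr11:67965633-67965718, minus strand): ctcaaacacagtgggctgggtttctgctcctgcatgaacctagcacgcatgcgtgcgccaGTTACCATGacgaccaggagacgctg
Tekt3 (tektin; MYB letters; chr11:63061571-63061668, plus strand): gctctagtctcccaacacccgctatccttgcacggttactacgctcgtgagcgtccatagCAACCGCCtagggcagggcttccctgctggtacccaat
Adam1b (sperm surface; MYB letters; chr5:121503426-121503536, minus strand): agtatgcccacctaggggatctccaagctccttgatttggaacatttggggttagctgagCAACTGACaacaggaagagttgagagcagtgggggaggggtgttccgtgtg
Ccna1 (cyclin A1; MYB letters; chr3:55055099-55055211, minus strand): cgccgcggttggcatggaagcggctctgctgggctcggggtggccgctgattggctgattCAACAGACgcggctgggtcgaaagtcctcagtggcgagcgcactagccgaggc
Piwil1 (piRNA binding; MYB letters on the other strand; chr5:128736111-128736223, plus strand): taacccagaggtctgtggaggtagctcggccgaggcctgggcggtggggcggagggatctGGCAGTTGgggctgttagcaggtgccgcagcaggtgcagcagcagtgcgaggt
Ldha (lactate dehydrogenase; response element; chr7:46845732-46845813, plus strand): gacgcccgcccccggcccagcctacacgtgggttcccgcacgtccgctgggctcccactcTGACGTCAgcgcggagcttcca

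The genes behind these windows were picked among lower genes, so their falls say nothing about the motifs. Dnali1 was at 35.2, 42.7 and 42.1 CPM in wild type and 3.33, 5.12 and 4.14 CPM in knockout (-3.25 ± 0.18), and Cfap52 at 44.9, 54.9 and 50 CPM against 4.42, 8.08 and 5.85 CPM (-3.02 ± 0.21). Adam1b was at 28.0, 41.7 and 25.3 CPM against 0.746, 0.972 and 0.958 CPM (-5.13 ± 0.26).

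RNA-binding proteins of germ cells were lower in 17 of 43 (39.5%) and higher in 2 (4.65%), beside 15.0% and 3.19% of all genes tested (median -0.29). The lower count was 10 with all 18 libraries in 1 fit, and 11 without wild-type library 8 or knockout library 12. Tdrd6, a Tudor protein of the chromatoid body, was at 263.5, 332.3 and 290.4 CPM in wild type and 22.3, 51.4 and 41.9 CPM in knockout (-2.94 ± 0.28, adjusted p 1.42e-04). Papolb, the testis poly(A) polymerase, was at 129.5, 137.1 and 76.7 CPM against 12.7, 32.7 and 21.3 CPM (-2.36 ± 0.34, adjusted p 0.00148). Piwil1, which binds pachytene piRNAs, was at 518.0, 634.1 and 675.9 CPM against 192.9, 327.1 and 270.9 CPM (-1.21 ± 0.20, adjusted p 0.00284). The translational repressors Ybx2 (-1.34 ± 0.16) and Ybx3 (-1.75 ± 0.16) fell as well, again with no overlap. In the list of translation initiation factors 5 of 42 (11.9%) were lower, beside 15.0% of all genes, and 3 higher (median -0.10). None was higher without wild-type library 8 or without any 1 knockout library, and the count of lower genes ran from 2 to 7 over the alternatives of scaling, tool, filter and library. Its lowest member was Pabpc2, a poly(A)-binding protein gene of the testis, at 233.6, 257.4 and 159.6 CPM against 7.0, 14.9 and 9.18 CPM (-4.38 ± 0.30, adjusted p 3.31e-05). The transcripts listed as piRNA precursors under a chromosome band were lower in 82 of 100 (82.0%), with a median of -1.30. Those listed under a gene name were lower in 13 of 114 (11.4%) and higher in 2 (1.75%), with a median of 0.04. Both shares of the gene-named set were below those of all genes tested (15.0% and 3.19%). The 100 tested and 1 untested band-named precursors summed to 23922, 22402 and 31797 CPM in wild-type libraries 7, 8 and 9 and to 8072, 16962 and 11536 CPM in knockout libraries 10, 11 and 12, with no overlap.

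The eCLIP libraries of the series give cross-link events of D1PAS1 on RNA. Of 129 tested genes with exon events in all 3 precipitates and at least 4-fold above input, 38 (29.5%) were lower at P18 and 6 (4.65%) higher. Of the other 2911 genes with exon events in all 3 precipitates 17.7% were lower, and of the remaining 12682 genes 14.3% were. The precipitates held 83105 to 106788 exon events each, and the inputs 154651 to 1932455. No minimum beyond 1 event per precipitate was set, so the 4-fold limit can rest on few events. The age of the eCLIP samples is not given in the labels. A link between binding and the falls was not tested.

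Genes for processing RNA-DNA hybrids (R-loops) were lower in 6 of 31 (19.4%, beside 15.0% of all genes) and higher in none (median -0.09). The count of lower genes was 4 with library totals or upper-quartile factors, and 4 without wild-type library 8, knockout library 11 or knockout library 12. Rnaseh2a, the catalytic subunit of RNase H2, was at 109.7, 125.7 and 86.0 CPM in wild type and 34.8, 27.7 and 23.5 CPM in knockout (-1.90 ± 0.18, adjusted p 1.62e-04), while the other subunits had -0.08 ± 0.15 (Rnaseh2c) and 0.02 ± 0.20 (Rnaseh2b). The mRNA export genes Thoc5 (-0.69 ± 0.09) and Thoc7 (-0.80 ± 0.14) and the helicase gene Rtel1 (-0.76 ± 0.13) were lower. Histone variant and spermatid chromatin genes were lower in 3 of 19 (15.8%) and higher in none (median -0.09). The lowest was Phf7, a histone reader and ubiquitin ligase, at 1226, 1083 and 703.5 CPM against 264.1, 390.8 and 340.6 CPM (-1.60 ± 0.22, adjusted p 0.00125). The spermatocyte linker histone gene Hist1h1t was at 544.7, 560.2 and 517.5 CPM against 244.6, 261.8 and 224.7 CPM (-1.15 ± 0.10, adjusted p 1.18e-04).

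Of 31 p53 target and apoptosis genes 2 (6.45%) were higher, beside 3.19% of all genes tested, and none was lower (median 0.18). Of 25 interferon response genes none was called (median -0.01), beside 18.2% of all genes. With library totals or upper-quartile factors 8 of the p53 and apoptosis genes and 3 of the interferon genes were higher. Pmaip1, which encodes the p53-induced apoptosis protein NOXA, was at 26.5, 27.4 and 10.6 CPM in wild type and 49.9, 49.4 and 62.5 CPM in knockout (1.33 ± 0.31, adjusted p 0.0189), a call that was lost without knockout library 12 (adjusted p 0.0791). Ccng1, the p53 target cyclin G1, was at 49.3, 43.7 and 36.2 CPM against 66.5, 58.3 and 68.9 CPM (0.58 ± 0.13, adjusted p 0.0165), lost without wild-type library 8 (0.0637) or knockout library 12 (0.0805).

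Few markers of somatic cells were called with TMM scaling, beside 18.2% of all genes. The summed level of 27 Sertoli markers was 6378 to 7191 CPM in wild type and 7204 to 8221 CPM in knockout, with 1 gene higher and none lower (median 0.22). The count of higher Sertoli genes was 3 with DESeq2 and 6 with library totals or upper-quartile factors. The 1 gene called with TMM, Shbg, which encodes the androgen-binding protein, was at 75.9, 69.9 and 70.5 CPM against 175.7, 129.3 and 109.6 CPM (0.94 ± 0.17, adjusted p 0.00464). The 16 Leydig markers summed to 786.2 to 1102 CPM and 869.7 to 1516 CPM, the highest in knockout library 10, with 1 gene higher (median 0.26). No gene was called among 14 peritubular or 12 endothelial markers, and 1 of 16 immune markers, the Fc receptor gene Fcgr3, was lower (-1.04 ± 0.16, adjusted p 0.00190). Spermatogonial markers were higher in 2 and lower in 2 of 22 (median 0.16), which is the share called over all genes. The part of cell composition in the gene groups above was not tested.

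The same genes were followed at the other ages, where separate libraries were used. At P14 no gene of 15922 was called by edgeR, with 948 at an unadjusted p below 0.05. The knocked-out gene D1Pas1 was thus not called either, so a lack of calls at P14 does not show a lack of effects. Of the 2365 genes lower at P18, 1984 were lower at P28 (83.9% of the P18 calls and 35.6% of the P28 calls) and 6 higher. Of all genes tested at P28, 31.6% were lower and 24.6% higher. The genes lower at P18 had a median log2 fold change of -0.05 at P14, -1.15 at P18 and -1.86 at P28. Of the 502 higher genes 295 were higher at P28 (58.8% of the P18 calls and 6.79% of the P28 calls) and 40 were lower, with medians of 0.01, 0.49 and 0.88. The genotype effect at P18 differed from that at P14 in 2279 of 16355 genes (13.9%) and from that at P28 in 4020 of 17773 genes (22.6%), by the interaction of age and genotype. That fit scales the 12 libraries of both ages together, so its difference need not equal the difference of the values fitted at each age. Piwil1, lower at P18, had a P28 log2 fold change of 0.03 (adjusted p 0.897), and the difference between these ages was -1.09 (adjusted p 0.0104), while that from P14 did not pass (-1.01, adjusted p 0.114). Efhc2 turned around, from 0.80 at P18 to -3.09 at P28 (difference 4.03, adjusted p 5.41e-05).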

How the data were processed

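For RNA-seq the authors deposited estimated counts of genes, not scaled to depth, with each age in its own table. The submitters' processing notes name cutadapt 3.4 and mm10. Aligner and annotation: not given in the sources used here. After rounding to whole numbers, the estimated counts went into edgeR 4.0.16 in R 4.3.3, with TMM scaling, the package's filter on low counts, a quasi-likelihood F-test (two-sided) of knockout against wild type and Benjamini-Hochberg adjustment over all genes tested, at a threshold of 0.05. Standard errors are the log2 fold change divided by the square root of F. CPM values use the TMM-scaled library sizes. Differences between ages are the interaction of age and genotype over 12 libraries scaled together. Depth of 16048760 to 21745480 estimated counts limits precision for genes with a few counts, whose ratios carry exact counting intervals. For eCLIP the authors deposited cross-link counts for windows of exons and introns, which were summed over exon windows per gene and set against the input after scaling both to their totals. Motif letters were matched by a Python 3.11.15 script in RefSeq promoters. Of 24626 gene names 24290 matched RefSeq, which gave chromosomes. Genes were named by a rule: D1Pas1 and its relatives, all members of lists of at most 14 genes, from longer lists the 4 called members with the smallest p-value, the 2 with most counts and up to 3 called against the trend, the retrogene pairs, and the lower and higher genes with the highest CPM. Genes named in lists outside that rule, and those stated in the text, were chosen after their values were seen. Members and lists were chosen with earlier results of these data known. Alternatives were DESeq2 1.42.0, limma-voom (limma 3.58.1), no filter, library totals, upper-quartile scaling, all 18 RNA-seq libraries in 1 fit, a 2-fold minimum and each library left out in turn. The fits were tested on simulated data over several draws, after the first criterion, a limit on false calls in 1 draw, failed and was replaced by the same limit on the mean over draws. Where few genes change, calls may hold more false ones than the nominal share. Small RNA and R-loop samples were not used here.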

Additional observations from a re-analysis of the deposited data

Results flagged for a closer look

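The genotype effect at P18 differed from that at P14 in 2279 of 16355 genes (13.9%) and from that at P28 in 4020 of 17773 genes (22.6%). Both counts are by the test of the interaction of age and genotype with an adjusted p below 0.05. Each age has its own table, so age and any difference between tables cannot be told apart, and the P18 libraries enter both tests. Values are the log2 fold change at P18 minus that at the other age as fitted over the 12 libraries of both ages scaled together, so they need not equal the difference of the values fitted at each age. Most genes of the text were chosen with their P18 values known, so their counts are a description.

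Of the 80 genes with values in the text, 55 differed from P14, beside 13.9% of all genes tested. The difference was negative in 44 and positive in 11. Among axoneme and transport genes the difference was -7.41 for Nme8, -6.34 for Tekt3, -5.35 for Dnaic2, -4.71 for Rsph6a, -3.22 for Tcte1, -3.18 for Dnah6, -2.90 for Dnali1, -2.62 for Dnaaf1, -2.21 for Cfap52, -1.75 for Dnah8 and -1.42 for Ift140. Nme8 held 2 counts in the P18 knockout libraries, so its fitted value depends on the prior count. Among genes of the acrosome, sperm surface, sperm channels and signalling it was -4.54 for Ppp3r2, -3.65 for Adam3, -3.53 for Catsperd and -2.73 for Acrbp. Metabolic genes had -2.76 for Pgam2, -2.14 for Ldha, -1.89 for Ldhc and -1.66 for Slc2a3, and retrogenes of X-linked parents -3.56 for Pgk2, -2.63 for Gk2, -2.49 for Cetn1 and -1.82 for Timm8a2. Regulators of transcription and chromatin had -6.99 for Pou5f2, -1.86 for Gtf2a1l, -1.66 for Phf7, -1.50 for Dmrtb1 and -0.82 for Hist1h1t. Genes of RNA binding and export had -3.72 for Pabpc2, -2.57 for Papolb, -2.44 for Tdrd6, -1.70 for Ybx3, -1.35 for Ybx2, -0.70 for Thoc7 and -0.57 for Thoc5. Among genes of meiosis, division and hybrid processing it was -4.16 for Ccna1, -2.13 for Aurkc, -1.83 for Rnaseh2a, -1.24 for Syce1, -0.90 for Prr19, -0.76 for Hspa2, -0.73 for Rtel1 and -0.45 for Mlh3, and the immune marker gene gave -0.98 for Fcgr3. The positive differences on the sex chromosomes were 0.32 for Cstf2, 0.40 for Taf9b, 0.51 for Scml2, 0.63 for Efhc2, 0.66 for Ccnb3 and 0.67 for Usp9y. On autosomes they were 0.48 for Slc2a1, 0.52 for Ccng1, 0.53 for Got1, 0.73 for Shbg and 1.61 for Pmaip1.

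Against P28, 31 of the 80 differed, 29 with a positive difference, beside 22.6% of all genes tested that differed in either direction. The negative ones were -1.10 for Shbg and -1.09 for Piwil1. A positive difference arises both where a fall is deeper at P28 and where a rise at P18 turns into a fall. The X-linked genes Efhc2, Tsga8, Gm14625 and Cstf2 were of the second kind: they rose at P18 and had log2 fold changes of -3.09, -2.67, -3.13 and -0.70 at P28, with differences of 4.03 for Efhc2, 4.66 for Tsga8, 7.18 for Gm14625 and 1.15 for Cstf2. Genes not called at P18 had 3.28 for Rfx1, 2.89 for Dnah11, 2.87 for Plk1, 2.69 for Rfx3 and 1.96 for Ccnb1, where Ccnb1 had -1.87 and Rfx1 -2.82 at P28. Other axoneme genes had 2.35 for Tcte1, 1.52 for Dnali1, 1.48 for Dnaaf1 and 1.14 for Cfap52. Genes of the sperm surface, acrosome and channels had 2.30 for Adam1b, 1.45 for Acrbp and 1.09 for Catsperd, and metabolic genes and retrogenes 2.98 for Pgk2, 1.53 for Pgam2, 1.00 for Gk2 and 0.93 for Ldha. Regulators of transcription had 2.90 for Dmrtb1 and 2.28 for Gtf2a1l, genes of RNA binding and export 1.52 for Papolb, 1.17 for Ybx3 and 1.00 for Thoc5, and genes of meiosis, division and hybrid processing 2.12 for Rnaseh2a, 1.94 for Ccna1, 1.18 for Aurkc and 1.06 for Prr19.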

How the results depend on the processing

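The count of higher genes (502) was 898 with DESeq2, 1694 with library totals, 1559 with upper-quartile scaling, 993 with all 18 libraries in 1 fit and 66 with a 2-fold minimum, and 99 to 734 with 1 library left out. The count of lower genes (2365) was 1312 with a 2-fold minimum and 1652 to 2585 with 1 library left out. The share of calls that were lower (82.5%) was 73.4% with DESeq2, 54.3% with library totals, 56.9% with upper-quartile scaling and 65.1% with all 18 libraries. Library totals, upper quartile and the fit of 18 libraries moved the median of all genes by 0.12, 0.11 and 0.12. With a 4-fold limit of the developmental classes the count of early genes that were higher was 123 in place of 328, since fewer genes were in the class. The interaction counts were 1594 to 3104 for P14 and 2805 to 3423 for P28 with 1 library left out. Without knockout library 12, 60.3% of the 2867 calls were kept, and without wild-type library 8, 61.0%. Of the 67 genes of the text that were called, 58 to 67 stayed called under each of 12 alternatives and none of the 67 changed sign. The uncalled Ccnb1 was at 0.06 with library totals and with all 18 libraries, at 0.05 with upper quartile, and ran from -0.20 to 0.02 with 1 library left out. The uncalled Rnaseh2c was at 0.04 with library totals and with all 18 libraries, 0.03 with upper quartile, and ran from -0.19 to 0.04 with 1 library left out. In the same leave-one-out fits Rnaseh2b ran from -0.11 to 0.24 and Sycp3 from -0.28 to 0.03. The causes of these changes were not tested. No paired analysis was possible because the columns of wild type and knockout carry different library numbers.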
